A study of Mus musculus with 18 samples.

Results

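Thymocytes lacking HOIL-1 were compared directly with thymocytes lacking SHARPIN at an early stage of their maturation, the CD69+ MHC I low fraction, with no wild-type (WT) cells in the contrast. The comparison took in 3 HoilΔCd4 and 3 Sharpin cpdm samples, 6 of the 18 RNA-seq samples of the study, each from its own mouse. It covered every gene that reached 0.5 CPM (counts relative to the library total, scaled to a standard size) in at least 3 samples and had an official symbol, which left 12798 of the 27179 genes counted. HoilΔCd4 mice carry loxP sites around the promoter and the first exons of Rbck1, the gene of HOIL-1, and a Cre transgene driven by Cd4, so that HOIL-1 is lost in T-lineage cells only, from the double-positive (DP) stage on. Sharpin cpdm mice carry the spontaneous cpdm mutation in their germline and lack SHARPIN in every cell, thymic stroma included, and their strain had been crossed from C57BL/Ka to C57BL/6 for only 2 generations. A difference between these groups therefore cannot be told apart from one of strain background, or of when and in which cells the protein was lost. The sources used here do not state the ages of the sequenced mice. By Xist and chromosome Y transcripts each mutant group held 1 female and 2 males, and the 3 WT mice, whose levels are given for orientation, were female.

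HOIL-1 and SHARPIN are partners of HOIP, the catalytic subunit, in the linear ubiquitin chain assembly complex (LUBAC). Linear chains built by LUBAC at receptors of the TNF family help to recruit the kinases that release NF-κB, and they restrain the death complexes that can form at the same receptors. In the thymus, cells chosen by positive selection put CD69 on their surface after a T-cell receptor (TCR) signal, shut down the DP programme and then, as they mature, raise surface MHC I, IL-7 receptor and CCR7 and become able to respond to cytokines. MHC I low cells stand near the start of this course. The question put to this contrast was which transcripts tell loss of one LUBAC subunit from loss of the other in cells of the same gate.

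Gene counts totalled 11805778 to 15173599 per library over the 6 samples. No 2 mice of a genotype agreed within sampling noise (chi-square per degree of freedom of 4.21 or more). The first principal component, with 40.6% of the variance, separated the genotypes, and on the second (16.7%) HoilΔCd4 mouse 1 lay at 21.78 and HoilΔCd4 mouse 2 at −27.28, so that the HoilΔCd4 group was the more scattered one. The cells carried the transcripts of the gate, with Cd3e between 378 and 527 CPM, Cd69 between 307.3 and 463.7 CPM and H2-K1 between 157.3 and 232.4 CPM, where the MHC I high cells of the mutants averaged 1809 and 2091 CPM of H2-K1. Some markers of other cells were at 0 in all 6 samples. They were 1 of 11 B-cell markers (Pax5), 3 of 24 myeloid and dendritic markers (Cd14, S100a8 and S100a9) and 4 of 9 natural killer markers (Gzmb, Klre1, Klra4 and Ncr1). They also took in 3 of 17 stromal markers (Col3a1, Pdgfra and Cdh5) and 2 of 9 erythroid and platelet markers (Ppbp and Pf4). The remaining markers had counts, which make up the sums below. The summed level of the 24 myeloid and dendritic markers was 33.4–46.1 CPM in HoilΔCd4 and 43.4–48 CPM in Sharpin cpdm samples, and that of the 17 thymic epithelial and stromal markers was 151–176 and 164–175 CPM. The 11 B-cell markers summed to 99.3–106 CPM in HoilΔCd4 and 80.3–95.9 CPM in Sharpin cpdm samples, nearly all of it Ighm. The sums of the 9 natural killer markers (10.1–11.4 and 9.56–13.2 CPM) and of the 9 erythroid and platelet markers (3.56–4.27 and 3.21–4.55 CPM) overlapped. In bulk RNA, fewer cells of a type and less RNA per cell cannot be told apart, and this holds for every result that follows.

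The genes of the 3 LUBAC subunits were examined first. Rbck1 (Entrez Gene 24105; chromosome 2, 152316334–152332663, GRCm38) stood at 0.5809, 0.7785 and 0.2714 CPM in the HoilΔCd4 mice and at 233, 231 and 235.9 CPM in the Sharpin cpdm mice. The deletion was thus close to complete in every HoilΔCd4 sample, and the Sharpin cpdm mice held a WT level (217.2–229.1 CPM). The log2 fold change, HoilΔCd4 minus Sharpin cpdm as in all that follows, was −8.69 ± 0.296 (standard error), with an adjusted p of 1.5e-09 by limma. Sharpin itself (Entrez Gene 106025; chromosome 15, 76347040–76351110) stood at 98.68, 116.2 and 95.73 CPM in HoilΔCd4 and at 74.74, 66.37 and 73.36 CPM in Sharpin cpdm mice. The mRNA was therefore still present in Sharpin cpdm cells, at 71.49 ± 4.49 CPM (SD, n = 3) against 103.5 ± 11.1 CPM, and the groups did not overlap (log2 fold change 0.53 ± 0.077, adjusted p = 2.61e-05). Loss of the SHARPIN protein cannot be read from these counts. Rnf31, which encodes HOIP (chromosome 14, 55591713–55603674), stood at 89.03, 106.6 and 101.4 CPM against 118, 101.6 and 102.8 CPM. The groups overlapped, and the difference was −0.12 with a 95% interval from −0.26 to 0.02 (adjusted p = 0.29). Among 14 genes of LUBAC and of the editing of linear ubiquitin the only other gene called was Tnip1, which encodes ABIN-1, a ubiquitin-binding brake on NF-κB. It stood at 110, 112.2 and 104 CPM in HoilΔCd4 and at 154.2, 150.2 and 154.1 CPM in Sharpin cpdm mice, with WT at 120.2–123.1 CPM (log2 fold change −0.49, adjusted p = 1.58e-06). Otulin and Cyld, which encode the deubiquitinases of these chains, did not pass the test (adjusted p of 0.294 and 0.137).

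Across all genes 1213 were called, 9.48% of those tested, at a Benjamini–Hochberg adjusted p under 0.05. At an unadjusted p under 0.05 there were 3056. Of the called genes, 655 (5.12% of all genes) were higher and 558 (4.36%) were lower in HoilΔCd4 cells. Most differences were small. The median size of a called log2 fold change was 0.38, 854 of the called genes (70.4%) differed by 1.5-fold or less, and 154 by 2-fold or more, 116 of them higher and 38 lower in HoilΔCd4 cells. The groups of 3 did not overlap in 1157 of the 1213 called genes, against 27.8% of all genes tested, and a call itself favours such separation. The WT mean lay between the mutants for 941 of the called genes (77.6%). It was nearer to HoilΔCd4 for 873 of them (72%, against 60% of all genes tested) and nearer to Sharpin cpdm for 340. The count of calls moved with single mice. It was 701 without Sharpin cpdm mouse 2, 724 without HoilΔCd4 mouse 1, 778 without HoilΔCd4 mouse 2 and 797 without Sharpin cpdm mouse 3.

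**Figure D1:**
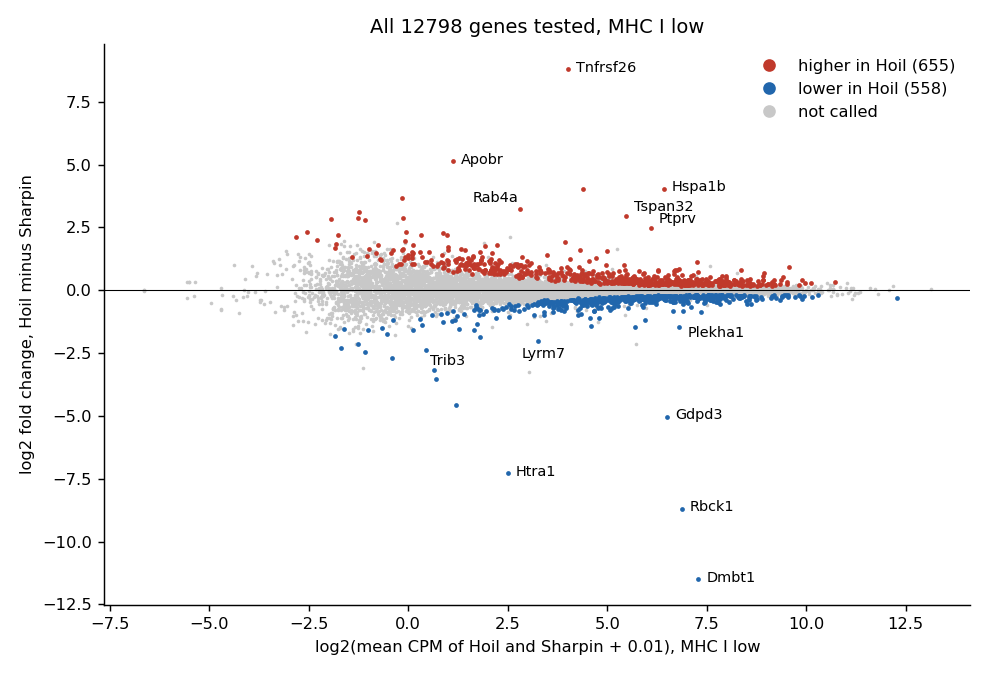
Each dot is 1 of the 12798 genes tested, with the log2 of its mean CPM (plus 0.01) in both mutants on the x axis and its log2 fold change, HoilΔCd4 (Hoil) minus Sharpin cpdm (Sharpin), on the y axis. The 655 genes called higher in HoilΔCd4 cells are red and the 558 called lower are blue, and most lie close to 0, with Rbck1 and a few other named genes far from the rest.

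Many of the largest differences belonged to genes on chromosome 7, and in most of those named here, with Pde2a described further on as an exception, the Sharpin cpdm mice stood apart from both HoilΔCd4 and WT mice. Dmbt1, which encodes a secreted scavenger-receptor glycoprotein of epithelia (chromosome 7, 131032057–131121628), stood at 320.4, 286.1 and 329.9 CPM in the Sharpin cpdm mice. It had 2 counts in all 3 HoilΔCd4 samples together against 12009, a ratio of 6270 (95% counting interval 1740–51800), and WT mice had 0.0782–0.32 CPM. Htra1, a neighbouring gene for a secreted serine protease (130936203–130985658), stood at 13.72, 9.899 and 10.37 CPM in Sharpin cpdm and at 0 in all HoilΔCd4 and WT mice. Against a floor of 3 counts over the group it was at least 154-fold higher in Sharpin cpdm cells (adjusted p = 1.06e-10). Plekha1, a phosphoinositide-binding adaptor gene beside it (130860551–130913494), stood at 64.85, 59.86 and 54.82 CPM against 178.3, 160.5 and 154.9 CPM (log2 fold change −1.46, adjusted p = 1.04e-15). Gdpd3, a lysophospholipase D gene (126766414–126775645), stood at 5.228, 5.363 and 3.935 CPM against 125, 138.1 and 268.9 CPM (log2 fold change −5.03, adjusted p = 2.08e-07). Mtg1, a mitochondrial ribosome-associated GTPase gene of chromosome 7, was also lower in HoilΔCd4 cells (log2 fold change −1.44).

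Other genes of chromosome 7 were low or silent in Sharpin cpdm cells instead. Tnfrsf26, a gene of the TNF receptor family (143607685–143627845), stood at 31.51, 34.6 and 31.01 CPM in HoilΔCd4 mice and at 0 in each Sharpin cpdm mouse, so it was at least 412-fold higher in HoilΔCd4 cells (3 counts over the group, adjusted p = 1.26e-17). Its neighbours Tnfrsf22 and Tnfrsf23, genes of TRAIL-binding decoy receptors, were higher in HoilΔCd4 cells as well (log2 fold changes 2.21 and 2.88, adjusted p of 7.02e-05 and 0.00168), and their closely related sequences make the split of reads between them uncertain. Tspan32, a tetraspanin gene of blood cells (143004907–143019486), stood at 76.97, 81.92 and 79.11 CPM against 8.177, 11.62 and 10.71 CPM. At 2.95 ± 0.094 on the log2 scale (adjusted p = 1.17e-19) it had the smallest p of all genes. Apobr, a lipoprotein receptor gene (126584918–126589125), stood at 2.977, 5.017 and 4.749 CPM and had 3 counts in the Sharpin cpdm samples together, a ratio of 53.9 (18.1–264). Cln3, the lysosomal gene mutated in juvenile Batten disease, overlaps its end (126571207–126585817), and the strand setting of the counts was not given. It stood at 46.84, 52.94 and 42.4 CPM against 18.25, 14.12 and 15.89 CPM (log2 fold change 1.57, adjusted p = 9.39e-13). The metalloprotease genes Adam8 and Adam12 were higher in HoilΔCd4 cells too (log2 fold changes 1.75 and 1.60).

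Called genes were unevenly spread along chromosome 7. In windows of 10 Mb with at least 10 tested genes, 13 of 40 genes (32.5%) were called between 130 and 140 Mb, 8 of them by 2-fold or more, and 19 of 76 (25%) between 140 and 150 Mb, 10 of them by 2-fold or more. Between 120 and 130 Mb it was 27 of 127 (21.3%), against 9.48% over all genes and 12.2% (120 of 986) over chromosome 7. Windows on other chromosomes reached like shares. Of those with the highest, 4 of 12 genes were called between 80 and 90 Mb of chromosome 5 (33.3%) 4 of 13 between 100 and 110 Mb of chromosome 6 (30.8%), 3 of 10 between 20 and 30 Mb of chromosome 15 (30%) and 4 of 14 between 80 and 90 Mb of chromosome 13 (28.6%), none of them by 2-fold or more. Windows with more genes had 9 of 32 called between 60 and 70 Mb (28.1%, 2 by 2-fold or more) and 9 of 42 between 180 and 190 Mb of chromosome 1 (21.4%), and 9 of 36 between 40 and 50 Mb of chromosome 11 (25%, 3 by 2-fold or more). Around the targeted genes, 1 of 12 genes within 500 kb of Rbck1 and 2 of 47 within 500 kb of Sharpin were called. The first was Trib3, a stress-response pseudokinase gene next to Rbck1 on chromosome 2 (152337425–152344060), at 0.7261, 0.2595 and 0.2714 CPM in HoilΔCd4 and at 2.5, 2.324 and 2.091 CPM in Sharpin cpdm mice, with WT at 1.486–2.177 CPM (log2 fold change −2.39, adjusted p = 0.000341). The other 2, C030006K11Rik (log2 fold change −0.83) and the NAD-synthesis gene Naprt (0.99), lie around Sharpin, and the call of Naprt was lost without HoilΔCd4 mice 2 or 3 or Sharpin cpdm mice 1 or 2 (adjusted p up to 0.191). The mutations cannot be told apart from strain background in any of these regions.

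Outside chromosome 7, Rab4a and Lyrm7 also set the Sharpin cpdm mice apart. Rab4a, a GTPase gene of endosome recycling (chromosome 8, 123805846–123835291), stood at 13.29, 14.62 and 10.45 CPM in HoilΔCd4 and at 1.216, 1.377 and 1.087 CPM in Sharpin cpdm mice (log2 fold change 3.24, adjusted p = 1.22e-14). Lyrm7, an assembly factor gene of respiratory complex III (chromosome 11, 54826866–54860921), stood at 4.212, 3.287 and 3.596 CPM against 14.06, 15.06 and 16.81 CPM (log2 fold change −2.01, adjusted p = 6.04e-09). Between 50 and 60 Mb of chromosome 11, 17 of 101 genes were called (16.8%), 3 higher and 14 lower. The called genes Tnip1, Anxa6, Slc36a1, Irf1 and Uqcrq lie in this window with Lyrm7. For all of them the mutations cannot be told apart from strain background. For a smaller set it was HoilΔCd4 that stood apart. Marchf6, an endoplasmic reticulum ubiquitin ligase gene (chromosome 15, 31455899–31531082), stood at 109.3, 118.4 and 123.9 CPM in HoilΔCd4 mice, below the 222.7, 214.7 and 197.4 CPM of Sharpin cpdm and the 202.5–222.7 CPM of WT mice (log2 fold change −0.86, adjusted p = 2.81e-10). Ptprv, a receptor phosphatase locus of chromosome 1 that RefSeq lists as a transcribed pseudogene, stood at 85.9, 101.4 and 158.4 CPM against 21.22, 18.34 and 23.51 CPM, with WT at 22.32–25.18 CPM (log2 fold change 2.46, adjusted p = 4.54e-06). Pde2a, a cyclic nucleotide phosphodiesterase gene that lies on chromosome 7 (101421691–101512829), was also higher in HoilΔCd4 cells (14.09, 10.12 and 24.7 against 8.042, 4.648 and 6.19 CPM, with WT at 3.837–4.994 CPM, adjusted p = 0.000542), a call lost when only the 6 samples were fitted (adjusted p = 0.0704).

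**Figure D2:**
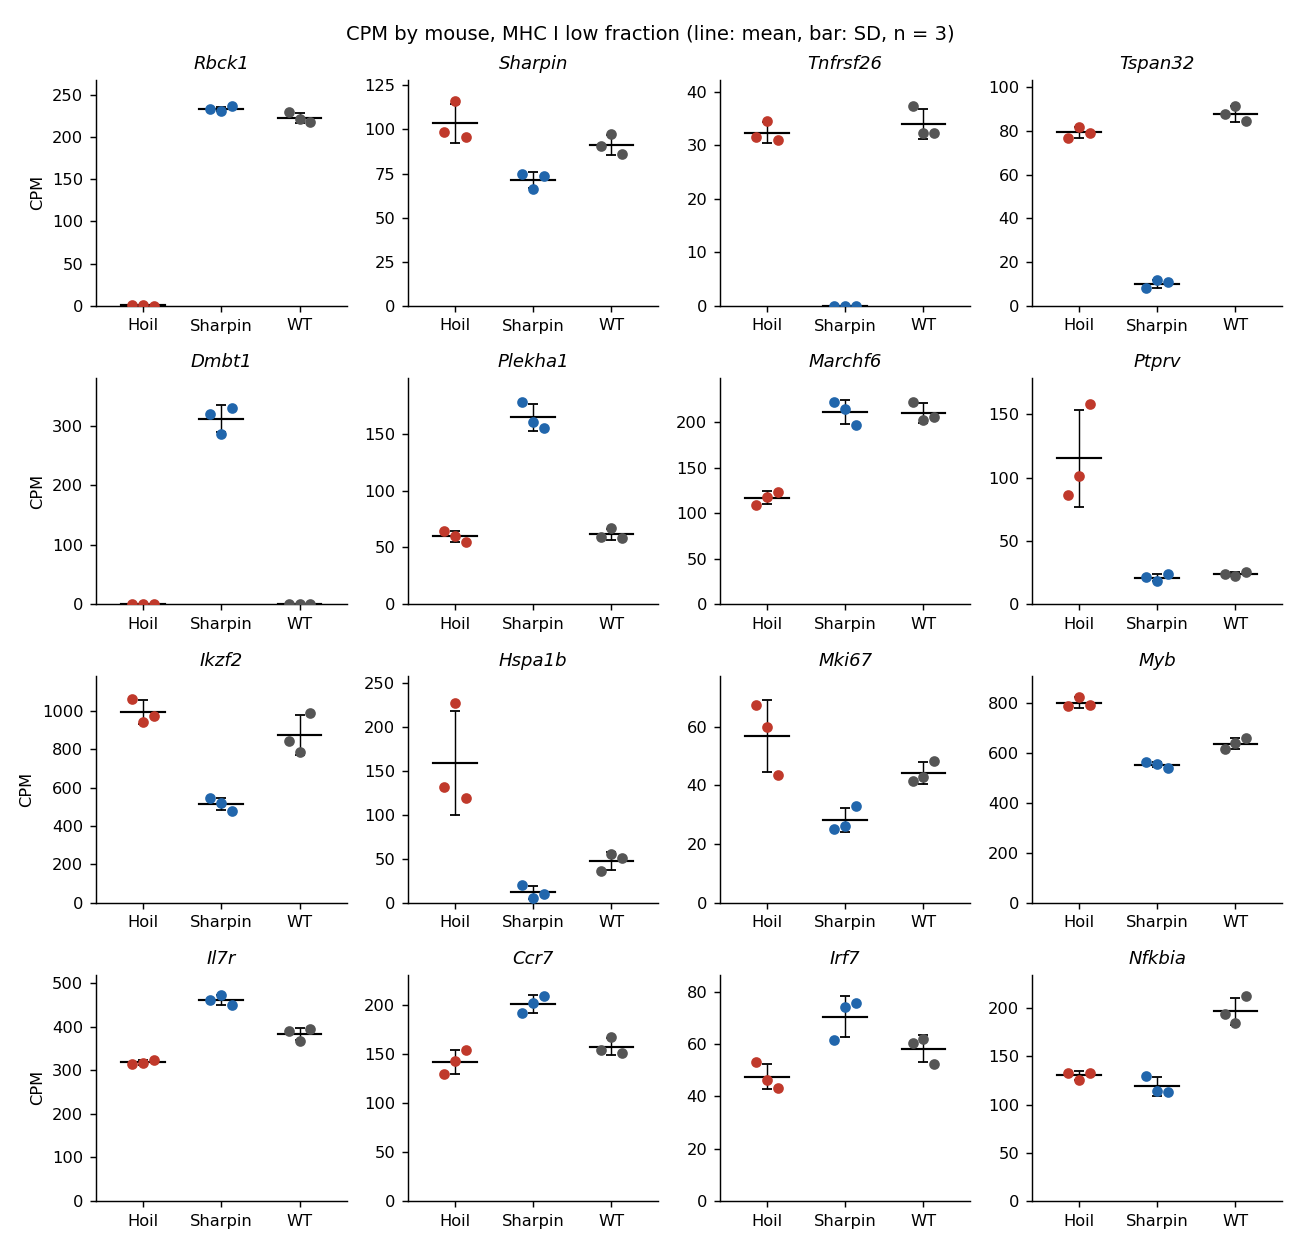
CPM of 16 named genes in each mouse of the MHC I low fraction, with HoilΔCd4 (Hoil) in red, Sharpin cpdm (Sharpin) in blue and WT in grey, each dot a mouse, the line the mean and the bar the SD of 3 mice. Dmbt1, Tnfrsf26, Tspan32 and Plekha1 set Sharpin cpdm apart from the other genotypes, Marchf6 and Ptprv set HoilΔCd4 apart, and Nfkbia was at 133.1 CPM or below in both mutants and at 185 CPM or above in WT.

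Transcripts of the mitotic machinery were higher in HoilΔCd4 cells. Of 36 mitosis and G2/M genes tested, 20 were higher and none lower, with a median log2 fold change of 0.68 (−0.01 over all genes), against 5.12% of all genes called higher. Hmmr, a spindle-associated gene, stood at 5.737, 5.969 and 3.867 CPM in HoilΔCd4 and at 1.352, 1.808 and 2.091 CPM in Sharpin cpdm mice (log2 fold change 1.52, adjusted p = 0.000151). Ccnb2, which encodes cyclin B2, stood at 7.77, 6.315 and 5.428 CPM against 2.703, 3.099 and 3.43 CPM (1.06, adjusted p = 2.67e-05). Mki67, the gene of the proliferation antigen Ki-67, stood at 67.39, 59.95 and 43.42 CPM against 25.27, 26.25 and 32.79 CPM (1.02, adjusted p = 0.00462). Within the HoilΔCd4 group mouse 3 was the lowest for all of these, and in none of them did the groups overlap. The chromosome-motor gene Kif4 and the survivin gene Birc5 differed likewise (1.19 and 0.99), and Top2a, the gene of topoisomerase IIα, by less (0.64, adjusted p = 0.0381). The summed level of the list was 422–553 CPM in HoilΔCd4, 351–418 CPM in Sharpin cpdm and 432–485 CPM in WT samples. The number called depended on single mice. It was 8 without Sharpin cpdm mouse 1, 10 without HoilΔCd4 mouse 1 and 11 without HoilΔCd4 mouse 2 or Sharpin cpdm mouse 2. The 45 genes of DNA replication and S phase did not follow, with 1 higher and 2 lower and a median of −0.07. Of 33 replication-dependent histone genes 1 was higher and 1 lower, where 5.12% of all genes were higher and 4.36% lower.

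Genes of the DP stage that are shut down after positive selection were in part higher in HoilΔCd4 cells, with 4 higher, 1 lower and a median of 0.20 among 20 tested, against 5.12% higher and 4.36% lower over all genes. Rag2, a subunit of the recombinase that rearranges antigen receptor genes, stood at 8.714, 12.28 and 10.11 CPM against 2.771, 4.907 and 4.434 CPM (log2 fold change 1.34, adjusted p = 0.000697). Myb, a transcription factor gene of immature T cells, stood at 787.2, 826.4 and 795.1 CPM against 563.2, 556.9 and 541.3 CPM, with WT between them at 617.1–659 CPM (0.53, adjusted p = 3.41e-06). Arpp21, a gene of an RNA-binding phosphoprotein of thymocytes, was at 0.48, and its call was lost without any one of the HoilΔCd4 mice or without Sharpin cpdm mouse 1 (largest adjusted p of 0.0718). The number called higher was 2 without HoilΔCd4 mouse 2 and 9 when only the 6 samples were fitted.

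Among 32 genes of late maturation and egress, 1 was higher and 6 lower in HoilΔCd4 cells (5.12% and 4.36% of all genes), with a median of −0.10. Il7r, the α chain of the receptor for IL-7, a cytokine that mature thymocytes depend on, stood at 313.8, 316.6 and 324.8 CPM in HoilΔCd4 and at 460.7, 473 and 451 CPM in Sharpin cpdm mice. WT mice lay between, at 367.2–393.9 CPM, so that no mouse of one genotype overlapped with another (log2 fold change −0.54 ± 0.0575, adjusted p = 1.47e-07). Ccr7, the chemokine receptor gene that guides selected thymocytes to the medulla, stood at 129.7, 143.2 and 154.3 CPM against 192.2, 202.5 and 209.6 CPM (−0.50, adjusted p = 1.08e-05). WT mice, at 151.4–168 CPM of Ccr7, overlapped with HoilΔCd4 and lay below Sharpin cpdm mice. Cd52, a surface glycoprotein gene of mature lymphocytes, was lower too (−0.35, adjusted p = 0.00253). Klf2, which encodes the factor that switches on egress receptors, did not pass the test at 0.34 (adjusted p = 0.0519).

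Of 24 genes that report the strength of the TCR signal, 5 were higher and 2 lower, against 5.12% and 4.36% of all genes. Ikzf2, the gene of Helios, which marks strongly signalled thymocytes, stood at 1063, 942.3 and 973.5 CPM in HoilΔCd4 and at 546.4, 517.1 and 479.6 CPM in Sharpin cpdm mice, with WT at 787.4–990.7 CPM (0.94, adjusted p = 2.49e-05). Nr4a1, the gene of the TCR-induced nuclear receptor NUR77, stood at 1035, 1045 and 1151 CPM against 867.2, 786.4 and 826.2 CPM (0.39, adjusted p = 0.000518). Nab2, a corepressor gene of the EGR factors, stood at 553.7, 582 and 575.5 CPM against 427.9, 360.3 and 395.6 CPM (0.55, adjusted p = 2.78e-06). Cd69, the gene of the gated marker, stood at 401.6, 378.8 and 463.7 CPM against 307.3, 320.7 and 314.9 CPM (0.40, adjusted p = 0.0033). Egr3, a TCR-induced transcription factor gene, was lower in HoilΔCd4 cells (−0.46, adjusted p = 0.00633), a call lost without Sharpin cpdm mouse 2 (adjusted p = 0.183). The median of the list was −0.04 (0.01 without Sharpin cpdm mouse 1), and the number called lower was 0 without Sharpin cpdm mouse 2, 1 without HoilΔCd4 mouse 1 and 4 without HoilΔCd4 mouse 3. Of 29 lineage and identity factor genes 3 were higher and 4 lower (5.12% and 4.36% of all genes), among them Satb1, a chromatin organiser gene of thymocytes, at 4530, 4439 and 4479 CPM against 5375, 5793 and 5247 CPM (−0.30, adjusted p = 0.000692). Without HoilΔCd4 mouse 1 there was 1 call in each direction, and without Sharpin cpdm mouse 2 there was 1 lower. Cd4 and Cd8a did not pass the test, with differences of 0.08 (95% interval −0.05 to 0.21) and 0.20 (0.04 to 0.37, adjusted p = 0.109).

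Of 22 immediate early and heat shock genes, 6 were called higher in HoilΔCd4 cells and none lower (5.12% and 4.36% of all genes), while 9 of the 22 had a negative log2 fold change. The 6 called were chaperone genes. Hspa1b, an inducible HSP70 gene, stood at 131.4, 227.2 and 119.1 CPM in HoilΔCd4, at 20, 4.734 and 10.29 CPM in Sharpin cpdm and at 35.66, 55.64 and 51.07 CPM in WT mice (4.04, adjusted p = 0.00137). Its near-identical copy Hspa1a showed a difference of similar size (4.05, adjusted p = 0.00518), which was lost when only the 6 samples were fitted (adjusted p = 0.0509), and reads may be shared between these copies. The groups were far apart in both genes, although the mice of each group differed widely among themselves. Dnaja1, a gene of an HSP40 co-chaperone, stood at 119.9, 159.3 and 136 CPM against 79.13, 78.94 and 73.86 CPM (0.81, adjusted p = 7.91e-08). Dnajb1, another HSP40 gene, stood at 187.3, 196.4 and 198 CPM against 132, 109.8 and 112.2 CPM (0.73, adjusted p = 8e-07). Hsp90aa1 and Hspa8, the genes of HSP90α and the constitutive HSC70, were at 0.78 and 0.80 (adjusted p of 0.0147 and 0.0325), and the call of Hspa8 was lost without any one of HoilΔCd4 mice 2 and 3 and the 3 Sharpin cpdm mice (adjusted p up to 0.114). The number called higher was 10 without HoilΔCd4 mouse 1 and 4 without HoilΔCd4 mouse 3, and other fits called up to 2 of the list lower.

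**Figure D3:**
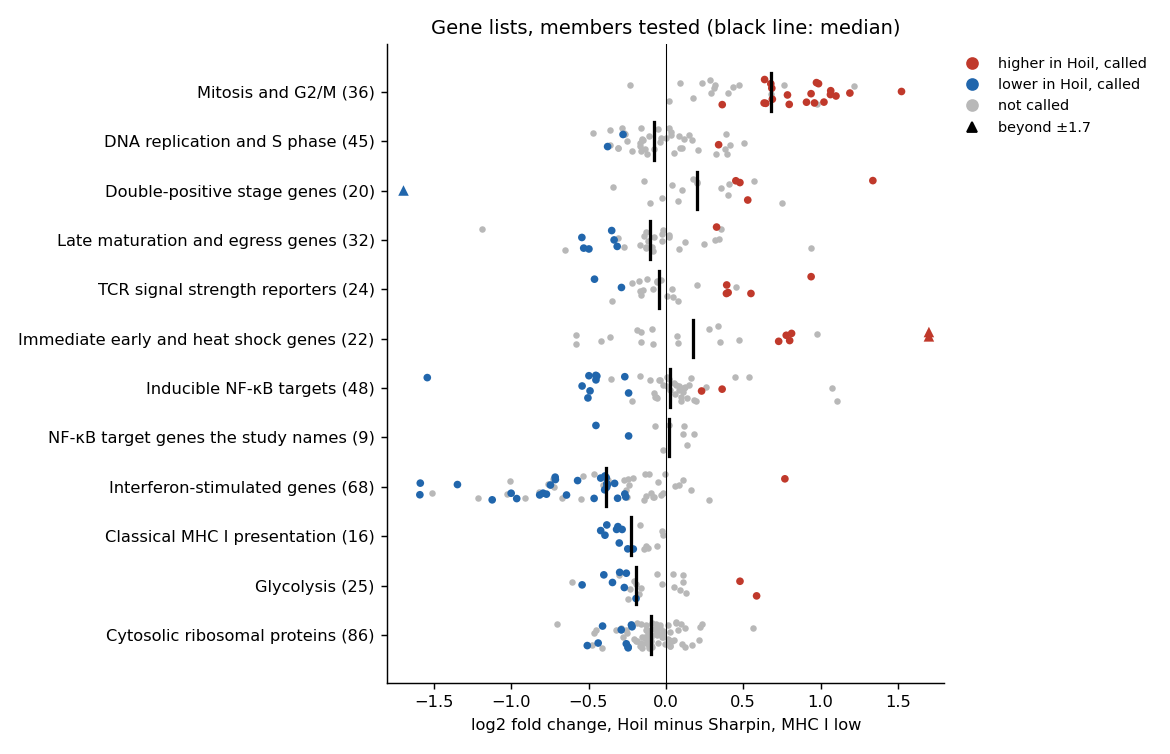
Each dot is a tested member of a gene list, with its log2 fold change, HoilΔCd4 (Hoil) minus Sharpin cpdm (Sharpin), on the x axis, red or blue where called and grey where not, and triangles for called members beyond the axis limit. Black lines are list medians, which lay at 0.68 for mitosis and G2/M, −0.39 for interferon-stimulated genes, −0.23 for classical MHC I presentation and 0.02 for inducible NF-κB targets.

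Interferon-stimulated genes were lower in HoilΔCd4 than in Sharpin cpdm cells. Of 68 tested, 26 were lower and 1 was higher, against 4.36% and 5.12% over all genes, and 62 had a negative log2 fold change, with a median of −0.39. Their summed level was 4050–4870 CPM in HoilΔCd4, 4900–5500 CPM in Sharpin cpdm and 5020–5350 CPM in WT samples. The median log2 fold change of the list against WT was −0.27 for HoilΔCd4 and 0.12 for Sharpin cpdm cells. The number called lower was 16 without Sharpin cpdm mouse 2, 17 without HoilΔCd4 mouse 2 and 37 without HoilΔCd4 mouse 1. The summed myeloid and dendritic markers were at 33.4–46.1 CPM in HoilΔCd4 and 43.4–48 CPM in Sharpin cpdm samples. The part of such cells in these differences was not tested.

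The interferon-stimulated response element (ISRE), the element through which type I interferon acts on its target genes, was searched for as GAAA, any 2 bases and GAAA on either strand. Promoters of 3 lower genes are shown, which were picked for a match before the start, in order of p among the called genes. Called genes without such a match were passed over. The 250 bases before the start are given 5′ to 3′ on the strand of the gene, from RefSeq and GRCm38.p6, with matches in capitals, for Ifi213 (chr1:173599273-173599522, minus strand), Oas1a (chr5:120907526-120907775, minus) and Trim30a (chr7:104465194-104465443, minus).
Ifi213: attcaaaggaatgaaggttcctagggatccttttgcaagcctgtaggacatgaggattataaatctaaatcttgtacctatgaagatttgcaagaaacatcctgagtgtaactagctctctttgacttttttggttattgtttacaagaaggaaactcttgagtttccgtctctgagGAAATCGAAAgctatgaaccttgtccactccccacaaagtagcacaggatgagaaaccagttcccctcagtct
Oas1a: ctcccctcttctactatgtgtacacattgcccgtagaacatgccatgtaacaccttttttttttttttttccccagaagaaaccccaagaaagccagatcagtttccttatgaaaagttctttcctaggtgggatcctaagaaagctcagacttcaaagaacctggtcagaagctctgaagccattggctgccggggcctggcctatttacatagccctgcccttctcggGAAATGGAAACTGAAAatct
Trim30a: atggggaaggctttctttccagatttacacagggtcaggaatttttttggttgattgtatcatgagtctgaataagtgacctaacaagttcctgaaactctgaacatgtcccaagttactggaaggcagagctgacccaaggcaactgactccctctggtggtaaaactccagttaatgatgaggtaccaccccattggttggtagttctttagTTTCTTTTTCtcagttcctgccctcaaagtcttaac
The match of Ifi213 lay 73 to 64 bases before the start, a pair of overlapping matches of Oas1a lay 20 to 5 bases before it, and that of Trim30a, on the other strand, 36 to 27 bases before it. An ISRE match was found in 8 of 26 windows of the lower interferon genes that had a promoter in the table (30.8%, for 20 of the 26 genes) and in 27 of 58 windows of all interferon genes tested (46.6%, for 48 of 68 genes). It was found in 3.44% of all 32851 windows of 300 bases (250 before and 50 after a start), in 5.47% of those of all genes called lower and in 3% of those of all genes called higher. The interferon γ-activated sequence (GAS) motif was searched for as TTC, any 3 bases and GAA. It was found in 6 of the 26 windows of lower interferon genes (23.1%) and in 12 of 58 windows of all interferon genes tested (20.7%). It was in 6.83% of the windows of all genes tested and in 8.3% of all windows. A match describes the letters of a window and not the binding of a factor.

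Among the lower interferon genes were effectors of antiviral defence. Ifi213, a nucleic acid sensor gene of the HIN-200 family, stood at 2.106, 1.903 and 1.628 CPM in HoilΔCd4 and at 4.325, 5.423 and 4.517 CPM in Sharpin cpdm mice (log2 fold change −1.35, adjusted p = 9.47e-06). Oas1a, a gene of an antiviral oligoadenylate synthetase, stood at 1.67, 1.817 and 1.221 CPM against 5.541, 4.734 and 3.681 CPM (−1.59, adjusted p = 0.00243). Ifi27l2a stood at 17.86, 15.14 and 12.69 CPM against 29.33, 36.07 and 31.7 CPM (−1.12, adjusted p = 3.9e-05). No mouse of one mutant reached the other mutant in these genes. WT mice had 2.112–3.713 CPM of Ifi213, between the mutants, 1.173–2.814 CPM of Oas1a and 16.74–22 CPM of Ifi27l2a. For Oas1a and Ifi27l2a the WT levels overlapped those of HoilΔCd4 and lay below those of Sharpin cpdm mice. Trim30a, a gene of an antiviral TRIM protein, stood at 101.4, 81.83 and 82.43 CPM against 118.1, 134 and 105.2 CPM (−0.46, adjusted p = 0.00427), where HoilΔCd4 mouse 1 came close to Sharpin cpdm mouse 3. Rtp4 (−0.82, adjusted p = 7.1e-05), Lgals3bp (−0.77, adjusted p = 7.02e-05), Slfn1 (−0.96, adjusted p = 0.007) and the tetherin gene Bst2 (−0.71, adjusted p = 0.00758) differed in the same direction.

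Of the regulators, Irf7, the amplifier of type I interferon, stood at 52.94, 46.36 and 43.35 CPM against 61.36, 74.12 and 75.7 CPM (−0.57, adjusted p = 0.00213). Irf7 lies on chromosome 7 (141263183–141266499), in the window from 140 to 150 Mb described above, where mutation and strain background cannot be told apart. Irf9 stood at 106.3, 94.55 and 99.46 CPM against 124.4, 124.4 and 123.6 CPM (−0.31, adjusted p = 0.002). Irf1, a target of both NF-κB and interferon γ, stood at 105.2, 91.17 and 82.5 CPM against 105.3, 114.2 and 112.4 CPM. Its HoilΔCd4 mouse 1 and Sharpin cpdm mouse 1 were level, and its call (−0.27, adjusted p = 0.0203) was lost without HoilΔCd4 mouse 2 or 3 or Sharpin cpdm mouse 2 or 3 (adjusted p up to 0.183). The exception was Ifi47, an interferon-inducible GTPase gene, which was higher in HoilΔCd4 cells at 103.9, 77.51 and 112.9 CPM against 51.29, 63.44 and 56.55 CPM (0.77, adjusted p = 0.000261).

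**Figure D4:**
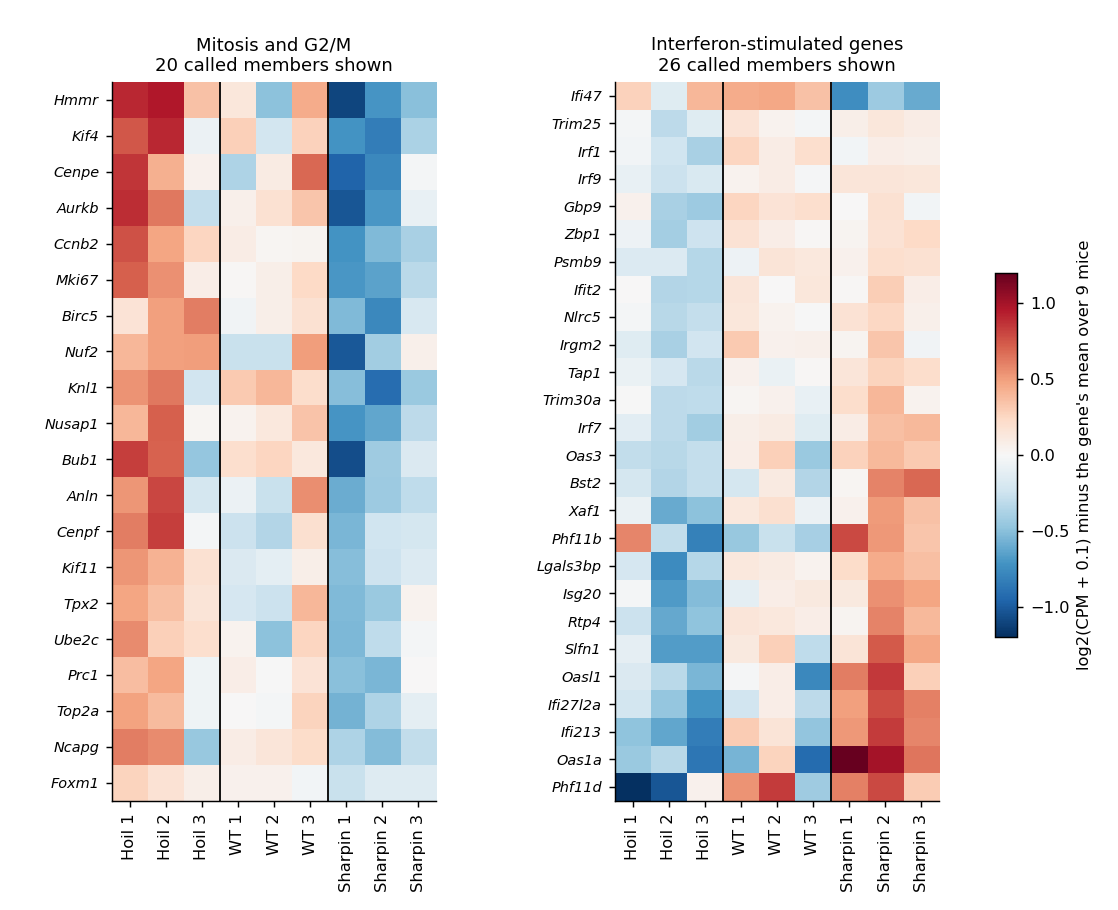
Heat maps of the 20 called mitosis and G2/M genes (left) and 26 of the 27 called interferon-stimulated genes (right), 1 row a gene and 1 column a mouse of the MHC I low fraction, coloured by log2(CPM + 0.1) minus the mean of the gene over the 9 mice. HoilΔCd4 mice 1 and 2 are the reddest columns for mitosis, HoilΔCd4 mouse 2 is among the bluest for the interferon genes, and WT lies between the mutants for most rows.

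Genes of classical MHC I presentation were lower in HoilΔCd4 cells, within a gate drawn on surface MHC I itself. Of 16 tested, 9 were lower and none higher (4.36% and 5.12% of all genes), all 16 had a negative log2 fold change, and 7 to 9 were called under each alternative. Tap1, a subunit of the peptide transporter, stood at 190.1, 174.5 and 160 CPM against 222.2, 241.4 and 231.5 CPM (−0.42, adjusted p = 0.000101). The immunoproteasome gene Psmb9 (−0.38, adjusted p = 0.00137), Nlrc5, the gene of the MHC I transactivator (−0.39, adjusted p = 0.00122), and B2m, the gene of the shared light chain (−0.30, adjusted p = 0.00242), were lower as well. The heavy-chain gene H2-K1 stood at 209, 193.2 and 157.3 CPM against 232.4, 224.8 and 211 CPM (−0.28, adjusted p = 0.00832), and like other heavy-chain genes it may share reads with its paralogues. The summed level of the list was 3190–3290 CPM in HoilΔCd4, 3370–3460 CPM in WT and 3620–3840 CPM in Sharpin cpdm samples.

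The inducible target genes of NF-κB had no common direction as a list, with 27 positive and 21 negative log2 fold changes. Called members were nonetheless frequent (25%, against 9.48% of all genes), and most of them were lower in HoilΔCd4 cells. Of 48 tested, 2 were higher (0 to 5 under the alternatives) and 10 lower, against 5.12% and 4.36% of all genes, and the median was 0.02 (−0.01 without HoilΔCd4 mouse 1 to 0.07 without HoilΔCd4 mouse 2). The number called lower was 5 without HoilΔCd4 mouse 3. Tnip1 had the smallest p of the list, and its promoter (chr11:54962941-54963190, minus strand) is shown with that of Irf1 (chr11:53769764-53770013, plus strand), another called target. Both were picked for a match to the κB motif before the start, in order of p. Called targets without such a match were passed over. The 250 bases before the start are given 5′ to 3′ from RefSeq and GRCm38.p6, with capitals for κB motifs, searched for as GGG, any 5 bases and CC on either strand.
Tnip1: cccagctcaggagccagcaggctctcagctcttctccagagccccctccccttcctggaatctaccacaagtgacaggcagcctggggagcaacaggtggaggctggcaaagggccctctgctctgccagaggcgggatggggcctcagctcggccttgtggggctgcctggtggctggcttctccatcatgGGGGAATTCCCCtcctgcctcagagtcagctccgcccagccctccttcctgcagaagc
Irf1: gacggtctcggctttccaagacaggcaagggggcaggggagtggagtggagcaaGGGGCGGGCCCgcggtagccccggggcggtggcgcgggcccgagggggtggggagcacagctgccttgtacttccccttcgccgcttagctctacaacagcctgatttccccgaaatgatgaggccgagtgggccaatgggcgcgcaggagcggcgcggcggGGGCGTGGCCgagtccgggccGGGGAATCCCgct
Overlapping κB matches of Tnip1 lay 58 to 47 bases before the start. This loose motif was in 50.8% of all windows and in 66.2% of those of genes tested, beside 41 of 54 windows of the NF-κB targets tested (75.9%, for 38 of 48 genes) and 4 of 7 windows of the lower ones (57.1%, for 6 of 10 genes).

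The feedback inhibitors and other core targets did not pass the test of a difference between the mutants, and all of those named here were below WT in both. Nfkbia, which encodes IκBα, stood at 132.8, 125 and 133.1 CPM in HoilΔCd4 and at 129.7, 113.8 and 113 CPM in Sharpin cpdm mice, far below the 193.7, 185 and 212.2 CPM of WT mice. The difference between the mutants was 0.14, with a 95% interval from 0.01 to 0.27 (adjusted p = 0.187). Tnfaip3, the gene of the deubiquitinase A20, averaged 179.8 and 166.4 CPM (0.11, interval −0.03 to 0.26), against 246.5 CPM in WT mice. Birc3, the gene of cIAP2, averaged 69.02 and 60.78 CPM (0.18, interval 0.04 to 0.33), against 93.2 CPM in WT. Gadd45b, a stress-signal gene, averaged 21.19 and 21.83 CPM (−0.02, interval −0.34 to 0.30), against 48.03 CPM in WT, and Relb averaged 79.77 and 85.09 CPM (−0.07, interval −0.23 to 0.09), against 113.2 CPM in WT. A missed threshold does not show that the mutants are equal in these genes. Il2ra, the gene of CD25, was low in both mutants with a wider interval (0.02, −0.38 to 0.43).

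Of the 12 NF-κB targets that were called, Tnip1, Irf1 and Ccr7 have been described, Myc and Slc2a3 follow with the metabolic genes, the chemokine gene Cxcl10 was under 1 CPM in all 6 samples, and the others are genes of the TNF and TNF receptor families, Cflar and Traf1. Tnfrsf4, the gene of OX40, stood at 21.49, 22.14 and 18.05 CPM in HoilΔCd4 and at 27.84, 27.2 and 28.61 CPM in Sharpin cpdm mice (−0.45, adjusted p = 0.0179), a call lost without HoilΔCd4 mouse 3 (adjusted p = 0.128). Tnfrsf18, the gene of GITR, differed by −0.24 (adjusted p = 0.0356), and this call was lost under 6 alternatives. Cd40lg, the gene of CD40 ligand, stood at 103.6, 109.3 and 110.6 CPM against 146.5, 145 and 154.4 CPM (−0.45, adjusted p = 0.000382). Tnf stood at 9.876, 9.861 and 6.92 CPM against 14.26, 11.02 and 12.38 CPM (−0.50, adjusted p = 0.0213), a call lost without HoilΔCd4 mouse 3 or Sharpin cpdm mouse 1 (adjusted p of 0.213 and 0.0951). Higher in HoilΔCd4 cells were Cflar, the gene of the caspase-8 inhibitor cFLIP (213.9, 204.3 and 194.2 against 185.7, 174.1 and 157.6 CPM, adjusted p = 0.0165), and Traf1, and either call was lost under other fits (adjusted p up to 0.0981 and 0.177). Of 9 NF-κB targets that the study names for this experiment, 0 were higher and 2 lower, namely Tnfrsf4 and Tnfrsf18, against 5.12% and 4.36% of all genes. Of 13 genes of the TNF receptor death complexes, 1 was higher (Cflar) and 1 lower (Zbp1, a sensor gene of necroptosis). The shares over all genes were again 5.12% and 4.36%, and the median of that group was −0.0036. Among genes of the BCL-2 family, Mcl1, an inhibitor of apoptosis that thymocytes need, stood at 631.1, 604 and 631.9 CPM against 548.9, 483.9 and 465 CPM (0.32, adjusted p = 0.00132).

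Genes that respond to cytokines and nutrients differed in both directions. Of 11 genes that the study names for loss of HOIL-1, 2 were higher and 7 lower in HoilΔCd4 than in Sharpin cpdm cells (5.12% and 4.36% of all genes). That list was chosen on these samples and is not independent evidence of its direction. Besides Il7r, Irf1, Irf7 and Irf9, its lower members included Myc and Slc2a3. Myc, the growth regulator gene, stood at 56.13, 57.44 and 59.5 CPM in HoilΔCd4 and at 70.08, 81 and 88.17 CPM in Sharpin cpdm mice (−0.45, adjusted p = 0.00255). Slc2a3, the gene of the glucose transporter GLUT3, stood at 93.24, 98.27 and 101.4 CPM against 152.5, 136.1 and 140.2 CPM (−0.54, adjusted p = 3.94e-06). Its higher members Cxcr4 and Bcl6 (0.33 and 0.25, adjusted p of 0.0489 and 0.032) lost the call under 7 and 6 alternatives. Cish, a STAT5-induced feedback gene, stood at 10.6, 11.5 and 12.96 CPM against 8.717, 10.5 and 11.13 CPM (0.22, interval −0.04 to 0.49), and Il2rb, the IL-2 receptor β chain gene, differed by 0.06 (interval −0.11 to 0.23). Of 25 JAK, STAT and SOCS genes 4 were higher and 1 lower (5.12% and 4.36% of all genes), with Stat4, the transducer of IL-12, at 35.73, 29.06 and 31.14 CPM against 24.06, 20.4 and 19.49 CPM (0.59, adjusted p = 0.000474). The number called higher was 2 without HoilΔCd4 mouse 2 or 3 or Sharpin cpdm mouse 2 or 3.

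Of 25 glycolysis genes 7 were lower and 2 higher, against 4.36% and 5.12% of all genes, with a median of −0.19. Besides Slc2a3 the lower ones included Pdk1, a kinase gene that holds pyruvate back from mitochondria, at 171.8, 152.2 and 180.1 CPM against 223.6, 238.1 and 196.5 CPM (−0.40, adjusted p = 0.000508), and the enzyme genes Hk1 (−0.27), Pkm (−0.30) and Eno1 (−0.35). The muscle-type enolase gene Eno3 was higher (0.48, adjusted p = 0.00313). The number called lower was 3 without HoilΔCd4 mouse 1 and 4 without HoilΔCd4 mouse 2 or Sharpin cpdm mouse 3. Cpt1a, whose enzyme admits fatty acids to mitochondria, stood at 73.49, 70.67 and 75.65 CPM against 46.16, 48.55 and 44 CPM (0.65, adjusted p = 0.000147). It was 1 of the 2 genes called among 22 of fatty acid oxidation (9.09%, near the 9.48% of all genes). Of 81 respiratory chain subunits 3 were lower (3.7%, near the 4.36% of all genes), among them Uqcrq (−0.53, adjusted p = 8.48e-06). Of 86 cytosolic ribosomal proteins 9 were lower (10.5%, against 4.36% of all genes), a number that fell to 3 without Sharpin cpdm mouse 3, 4 without HoilΔCd4 mouse 2 and 5 without HoilΔCd4 mouse 3. Of 21 glucocorticoid-induced genes 6 were higher (2 to 6 under the alternatives) and 3 lower, against 5.12% and 4.36% of all genes, with Ddit4, an inhibitor gene of mTORC1, at 160.1, 150.3 and 329.6 CPM and Tsc22d3, the gene of GILZ, at 30.72, 28.11 and 68.86 CPM in HoilΔCd4 mice. HoilΔCd4 mouse 3 was the highest in both, and their calls (adjusted p of 0.0161 and 0.0416) were lost under 4 and 10 alternatives.

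The difference between the mutants was then compared with that in the MHC I high fraction of the same mice, where 861 genes were called, 475 higher and 386 lower in HoilΔCd4 cells. By the test of the change in the difference, low minus high, 103 genes (0.805% of those tested) differed between the fractions, 50 with a positive and 53 with a negative value, and 1946 did so at an unadjusted p under 0.05. For Tspan32 the log2 fold change was 2.95 in the low and 1.38 in the high fraction (difference 1.57, adjusted p = 2.24e-10). Bend4 (0.93 and −0.23), Ift80 (0.52 and −0.06), Myb (0.53 and 0.05) and Ikzf2 (0.94 and 0.31) were higher in HoilΔCd4 cells of the MHC I low fraction and were not called in the high fraction. Kif4 followed the same order (1.19 and 0.02), while the mitosis list as a whole had medians of 0.68 and 0.11 in the low and high fractions. Slc2a3 (−0.54 and −0.16), Cd40lg (−0.45 and 0.06) and Itgb3, the integrin β3 gene (−0.46 and 0.16), were lower in HoilΔCd4 cells of the MHC I low fraction. Cish went the other way, at 0.22 in the low and 1.17 in the high fraction (adjusted p of the difference 0.00131). Bcl2, the survival gene, did too, at −0.10 and 0.40 (adjusted p of the difference 0.000291). The interferon list had medians of −0.39 and −0.27, and of its regulators named above the test called no difference between the fractions. Rbck1 averaged 5.724 CPM in MHC I high HoilΔCd4 cells, and the MHC I high sample of HoilΔCd4 mouse 2, a male by Ddx3y (333 CPM), also held 63.6 CPM of the female transcript Xist. The count of 103 was 23 without that mouse, 19 without HoilΔCd4 mouse 1, 43, 29 and 18 without Sharpin cpdm mouse 1, 2 or 3, 13 with no mouse block and 10 by edgeR, fewer than the genes named for this test, so a number of these single calls rest on the model used.

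**Figure D5:**
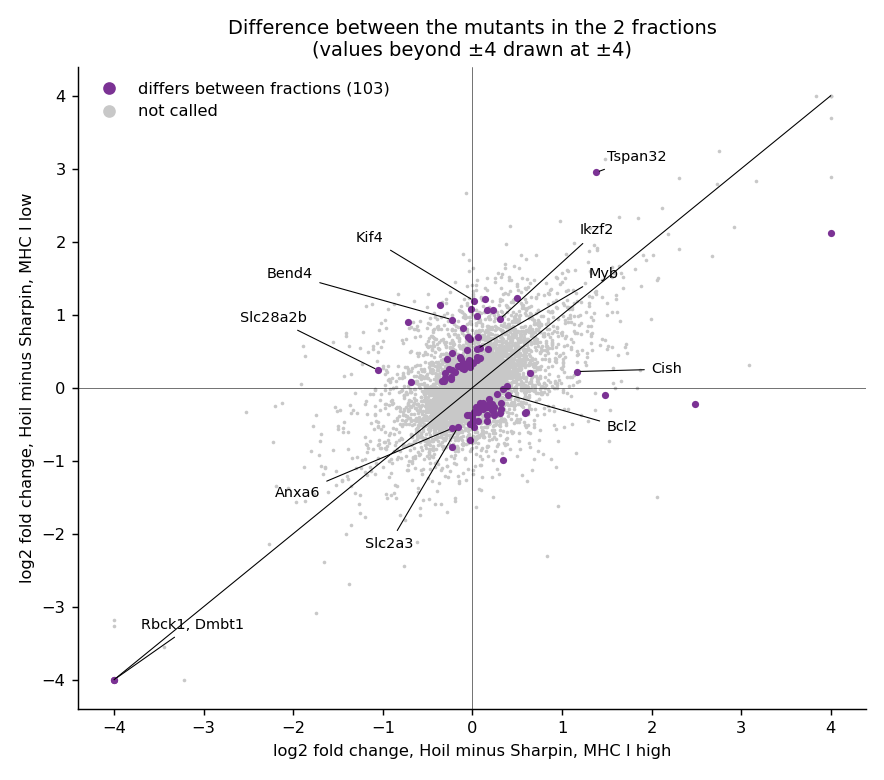
Each dot is a gene, with the log2 fold change, HoilΔCd4 (Hoil) minus Sharpin cpdm (Sharpin), in MHC I high cells on the x axis and in MHC I low cells on the y axis, both held within 4. The 103 genes whose difference changed between the fractions are purple, and Tspan32, Bend4 and Kif4 lie above the line of equal difference while Cish, Bcl2 and Slc2a3 lie below it.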

How the data were processed

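Sorted CD69+ MHC I low and MHC I high thymocytes of 3 WT, 3 HoilΔCd4 and 3 Sharpin cpdm mice were sequenced as single-end reads of 75 bases, after exclusion of dead cells and of cells bearing B220, MHC II, NK1.1, Gr1, Mac-1, the γδ TCR, CD44 or CD25. The deposited values are whole-number counts per Entrez Gene ID, without normalization and with replicates kept apart, which the authors made with the subread aligner of Rsubread, build mm10, and with featureCounts and its inbuilt RefSeq annotation. Versions, strandedness and the treatment of multi-mapping reads are not given in the sources used here, so counts of paralogous, overlapping and antisense genes are uncertain. Of 27179 genes, 25275 matched the RefSeq annotation of GRCm38.p6, and 1904 with 0.655% of the counts did not.

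Following the methods of the study, a gene was kept if 3 or more of the 18 samples held 0.5 CPM or more of it. Xist, genes of chromosome Y, genes that lack a symbol and predicted genes were dropped. This left 12798 genes with 98.4% of the counts. Counts were scaled by TMM (factors 0.9873–1.015) and turned into log2 CPM with a prior count of 1. Levels in CPM are TMM-scaled. One limma model of the 6 groups took in all 18 samples, weighted by sample quality (0.6282 for HoilΔCd4 mouse 2 to 1.321 for Sharpin cpdm mouse 2 in the low fraction), with the mouse as a random block (correlation 0.2239) and trended, robust empirical Bayes moderation. P-values were adjusted by the Benjamini–Hochberg method over all genes tested, and a gene under 0.05 was called. These p-values rest on the spread between the 3 mice of each group, pooled over all 6 groups and moderated across genes. They do not measure the spread of the 6 compared samples alone. Intervals of ratios with few counts are exact 95% Clopper-Pearson intervals on the summed counts and, like the floor of 3 counts over a group, cover counting error only. The difference between fractions was tested in the same model.

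The gene lists and the rule for named genes were chosen with earlier results of these data known. Named were the LUBAC subunits, genes that the study names for this experiment, in each direction the 15 called genes with the largest change (at least 5 CPM in the higher group, groups apart) and the 10 with the smallest p, called neighbours of Rbck1 and Sharpin, the 6 genes with the smallest p between fractions and, of each list, up to 4 called members a direction by size of change. Chosen after their values were seen were B2m, Birc5, Bst2, Ccnb2, Cd4, Cd40lg, Cd8a, Cyld, Foxp3, H2-K1, Hk1, Hsp90aa1, Klf2, Lgals3bp, Mki67, Otulin, Rtp4, Slfn1, Top2a and Trim30a. Some list members are not reported here by name. Lists are described by counts and medians. The fractions of each mouse come from 1 animal, whose departures from the group means were correlated in every mouse (r 0.0702–0.256), which the block takes up. The test between the mutants in the low fraction was run first on simulated counts whose changes were known. Those counts were drawn independently for each sample, and the test between fractions was not checked on them. Alternatives were edgeR, DESeq2, other scalings, filters, weights, blocks and prior counts, fits of fewer samples, Xist as a covariate, and each mutant mouse left out in turn. Promoter windows came from RefSeq (GRCm38.p6), and 9985 of the 12798 genes had one. Software was limma 3.58.1 with statmod 1.5.0, DESeq2 1.42.0 and edgeR 4.0.16, run in R 4.3.3.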

Additional observations from a re-analysis of the deposited data

Results flagged for a closer look

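The difference between the mutants changed from the MHC I low to the MHC I high fraction in 103 genes by limma's interaction test. Among the genes named here, the log2 fold change, HoilΔCd4 minus Sharpin cpdm, was larger in the low than in the high fraction by 1.57 for Tspan32, by 1.29 for Slc28a2b, by 1.17 for Kif4, by 1.16 for Bend4 and by 0.72 for Zfp948. Smaller positive changes of the difference were 0.63 for Ikzf2, 0.58 for Ift80, 0.48 for Myb, 0.40 for Ighm, 0.36 for Sharpin and 0.35 for Ptpn22. The value was negative for Dmbt1 (−3.97), Rbck1 (−3.15), Cish (−0.95), Itgb3 (−0.62), Capg (−0.53), Bcl2 (−0.49), Rpl15 (−0.45), Slc2a3 (−0.38) and Anxa6 (−0.33).

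For Slc28a2b, a nucleoside transporter gene, the low fraction held 13.22, 15.66 and 12.14 CPM in HoilΔCd4 and 9.799, 13.26 and 10.62 CPM in Sharpin cpdm mice, and the high fraction averaged 28.16 and 57.17 CPM. Its log2 fold change was 0.24 (adjusted p = 0.285) in the low and −1.05 in the high fraction. For Rbck1 and Dmbt1 one group had few or no counts in the low fraction, so the fitted size of the change depends on the prior count. The call of Sharpin (adjusted p = 0.0493), Capg and Ighm (both 0.0492) stood close to the threshold. The cause of these differences was not tested.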

How the results depend on the processing

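Against 1213 called genes, the fits of other tools, scalings, filters, weights, blocks, sample sets, prior counts and Xist as a covariate gave 1086 to 1637, and leaving out 1 mutant mouse gave 701 to 979. Without sample quality weights it was 1637. Higher genes made up 52.2–60.8% of the calls (54% in the model reported), and none of the called genes that were tested changed sign. Fitting the mouse number as a replicate block gave 1274, and no replicate block gave 1177. The numbers do not pair animals across genotypes (r 0.0302, −0.031 and −0.0314 for same-numbered HoilΔCd4 and Sharpin cpdm samples). For the difference between fractions, 103 became 10 by edgeR with either scaling, 38 by DESeq2, 25 without a filter, 177 with at least 10 counts in each of the 6 samples, 13 with no replicate block and 159 with the replicate block by mouse number. Leaving out 1 mouse gave 18 to 119. That test could not be run on the low fraction alone.

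Of 150 called genes that were named, 77 kept the call under all alternatives that tested them and 73 lost it under at least 1. Rbck1 and Sharpin kept theirs, but the filter on 10 counts left Rbck1 untested. Some genes that were never called changed sign, namely Gadd45b (0.0037 with the 6 samples alone, 0.0027 with the 9 low samples, −0.1237 to 0.0483 with 1 mouse left out), Il2ra (−0.1594 to 0.1947 with 1 mouse left out) and Il2rb (−0.0036 to 0.1505 with 1 mouse left out). The cause of these changes was not tested. With 3 mice a group, genes with few counts have wide intervals, and small differences in them were not detectable at this depth.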

Other observations

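Some groups of genes have not been described above, and over all genes 5.12% were higher and 4.36% lower. Of 18 BCL-2 family genes 1 was higher and 2 lower in HoilΔCd4 cells, the lower ones being the pro-death genes Bak1 (66.88 against 81.58 CPM) and Pmaip1 (2.542 against 4.25 CPM), and their calls were lost under 4 and 7 alternatives, with 0 lower without HoilΔCd4 mouse 1 or 2 or Sharpin cpdm mouse 2 or 3. Of 26 p53 targets 1 was higher, Trp53inp1 at 819.1 against 652.9 CPM (adjusted p = 0.00137, limma), and 1 lower, and without 1 mouse the lower call was lost in most refits. Of 30 genes of Myc function and ribosome biogenesis 4 were lower, Myc, Odc1, Polr1a and Cad, by 0.24 to 0.45 on the log2 scale. Of 30 genes of the CD3 complex and early TCR signalling 3 were higher and 2 lower, and without HoilΔCd4 mouse 1 it was 1 and 0. Cd3e was lower at 422.7 against 503.8 CPM, and Cbl, a ubiquitin ligase gene that limits TCR signals, was higher at 386.8 against 293.3 CPM (adjusted p of 0.0084 and 0.0163), and these calls were lost under 1 and 4 alternatives.

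Of 16 regulatory T cell genes 1 was higher, Ikzf2, and 4 lower, and Foxp3 was below 1 CPM in both mutants (0.88, adjusted p = 0.0769). Of 18 co-inhibitory and adenosine receptor genes, 16 were tested, of which Cd200 was higher at 32.56 against 22.77 CPM and Vsir, the gene of VISTA, lower at 100.7 against 130.2 CPM. Of 26 genes of the integrated stress and unfolded protein responses 2 were lower, Trib3 and Calr, and the call of Calr was lost under 3 alternatives.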
